A study of Saccharomyces cerevisiae with 26 samples.

Results

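The genes described here encode the proteins of the small (40S) subunit of the cytosolic ribosome of baker's yeast, Saccharomyces cerevisiae. They were chosen by symbol, as every RPS gene and ASC1 with a probe set that names that gene alone, and each gene was represented by its probe set of highest mean log2 signal. Of 57 such genes in the RefSeq gene table, 34 qualified, among 5656 genes measured by a probe set naming 1 gene. The others were not analysed as members, most of them because their probe sets are shared between genes, often a pair of duplicate copies. The 34 genes encode 21 proteins, and for 13 proteins both duplicate copies, called A and B, were measured. All 34 passed the filter on low signals.

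RNA was hybridised to 26 Affymetrix arrays, 13 for each of a pair of haploid prototrophic MATa strains carrying MAL2-8c and SUC2. The reference strain was CEN.PK113-7D, and the deletion strain carried a double mutant allele of leu2 and sfp1Δ::KlLEU2, the LEU2 marker in place of SFP1, so it differs from the reference at LEU2 as well as at SFP1. Both were grown in aerobic glucose-limited chemostats, continuous cultures in which the dilution rate (0.10 per h here) sets the growth rate, at 30 °C, pH 5.0 and 800 rpm. Steady state was sampled in 3 independent cultures per strain, then the cultures were flushed with nitrogen, the medium pumps were stopped and 200 mM glucose was injected, and 2 independent cultures per strain were sampled at each of 5, 10, 30, 60 and 120 min. The pulse changes glucose, oxygen and feeding together, and these cannot be told apart. The labels do not say whether 1 culture gave several times, nor whether the deletion strain is 1 clone.

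The 40S subunit scans mRNA, holds the decoding centre and is built from ribosomal RNA and a set of proteins made in matched amounts. In yeast most of these proteins are encoded by a pair of duplicate genes, and their transcription is among the largest tasks of RNA polymerase II in growing cells. It rises with glucose and falls when nutrients run out, through the factors Rap1, Fhl1, Ifh1 and Hmo1 and, downstream of the TOR and PKA kinases, the zinc finger activator Sfp1. No gene or probe sequence was available for printing.

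SFP1 itself checked the strain labels. Its signal was between 97.2 and 205.1 on the 13 reference arrays and between 0.2 and 2.9 on the 13 deletion arrays, below the floor of 12 used for weak signals. At steady state the deletion strain had at least 8.75-fold less of it (limma, adjusted p = 3.3e-12).

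All arrays had been scaled to the same 2% trimmed mean, 150.1 to 150.2. The deletion strain's arrays at 10 and 30 min went against their labels. Across genes, r was 0.805 between the 2 arrays labelled 10 min and 0.796 between those labelled 30 min. It was 0.978 between the first array of 10 min and the second of 30 min, and 0.922 between the second of 10 min and the first of 30 min. Replicates of every other group correlated at 0.970 to 0.993. These 4 arrays were therefore left out of the fit used for all other comparisons, which holds 22 arrays of 10 groups, and their own comparisons come from a fit of all 26 as labelled. The 5′ to 3′ signal ratio of actin, a sign of RNA integrity, was 0.697 to 0.923 on the reference arrays and 0.598 to 0.968 on 10 deletion arrays. It was 0.147 on deletion steady state replicate 1, 0.00322 on deletion 30 min replicate 1 and 0.247 on deletion 60 min replicate 1. The ratio of the middle of actin to its 3′ end was 0.207 on deletion 10 min replicate 2 and 0.176 on deletion 30 min replicate 1. On all other arrays that ratio was 0.560 to 0.872. The 2 arrays of low middle to 3′ ratio are those that correlated at 0.922 across labels.

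At steady state most small subunit transcripts did not pass the test between the strains, and 5 did. RPS28B, RPS27A and RPS26B were higher in the deletion strain, RPS9A and RPS7B were lower, and 29 of 34 genes did not pass the test (limma, Benjamini-Hochberg adjusted p under 0.05). Among all 5339 genes tested, 18.5 percent were called higher and 8.35 percent lower. With 5 calls, the share of the 34 genes is not shown to differ from these shares. The median log2 difference of the 34 genes was 0.01, with a range from -0.62 to 0.76, against 0.13 for all genes, and 11 of the 34 had an unadjusted p under 0.05. In the fit of all 26 arrays as labelled none of the 34 genes was called at steady state in limma, and 1 had an unadjusted p under 0.05. The 5 called genes encode 5 different proteins, and in no case was the other copy called. With so few calls, a copy that misses the threshold does not show that it differs from its partner.

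RPS28B, whose protein sits in the head of the subunit near the mRNA exit, had signals of 1224.9, 1373.9 and 1243.0 in the reference cultures and 2355.6, 2235.5 and 1909.8 in the deletion cultures. All 3 deletion cultures were above all 3 reference cultures. The difference was 0.76 ± 0.139 on the log2 scale (SE, n = 3 against 3; limma adjusted p = 9.4e-04), a 1.69-fold higher level. Its other copy, RPS28A, had signals of 1588.3, 1983.1 and 1753.7 in the reference strain and of 1817.4, 1776.9 and 1688.9 in the deletion strain. Those groups overlapped, with a log2 difference of -0.01 that was not called (limma adjusted p = 0.99). RPS28B mRNA is known in yeast for a feedback loop in which Rps28 protein and Edc3 promote its decay.

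RPS27A encodes a zinc-binding protein of the body and RPS26B a protein of the platform that lines the mRNA exit channel. RPS27A measured 1068.9, 1171.2 and 1046.4 in the reference strain and 1497.6, 1618.3 and 1389.4 in the deletion strain, a log2 difference of 0.45 ± 0.113 (limma adjusted p = 0.0073). RPS26B measured 475.5, 528.2 and 479.8 against 776.7, 620.1 and 579.4, a log2 difference of 0.40 ± 0.121 (limma adjusted p = 0.02). For both genes every deletion culture exceeded every reference culture. The highest RPS26B value came from deletion replicate 1, the culture with the low actin ratio.

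RPS9A encodes a body protein near the mRNA entry and RPS7B a body protein on the solvent side. RPS9A measured 809.4, 955.4 and 764.2 in the reference strain and 586.9, 666.7 and 598.7 in the deletion strain, a log2 difference of -0.44 ± 0.102 (limma adjusted p = 0.0044). RPS7B measured 893.6, 1155.2 and 914.1 against 635.5, 738.0 and 854.9, a log2 difference of -0.41 ± 0.120 (limma adjusted p = 0.017). Neither gene overlapped between strains. These calls depend in part on single arrays. Without deletion replicate 1, and likewise without the low-actin arrays, RPS26B and RPS7B lost their calls, which left 2 genes higher and 1 lower. RPS26B also lost its call without reference replicate 1 or 3. Without reference replicate 2, RPS7B lost its call and RPS25B and RPS9B were called, for 5 higher and 1 lower. RPS14A and RPS14B were called lower in addition without deletion replicate 2 or 3, for 4 lower. Without reference replicate 1, ASC1 was called lower and RPS29B higher, for 3 higher and 3 lower.

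The lowest difference of all belonged to RPS14B and was not called. Its product is a platform protein, and in yeast Rps14 protein is known to bind RPS14B pre-mRNA and limit its splicing. RPS14B measured 786.3, 839.8 and 832.7 in the reference strain and 303.4, 739.7 and 670.9 in the deletion strain, a log2 difference of -0.62 ± 0.251 (limma adjusted p = 0.072). Deletion replicate 1 alone was far below the other 5 cultures. That array has the actin ratio of 0.147, and the only array on which RPS14B was weaker, at 200.5, was deletion 30 min replicate 1, with the ratio of 0.00322. RPS14A was also lowest on these 2 arrays, at 677.5 and 569.8. The part of RNA integrity in these values was not tested.

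**Figure D1:**
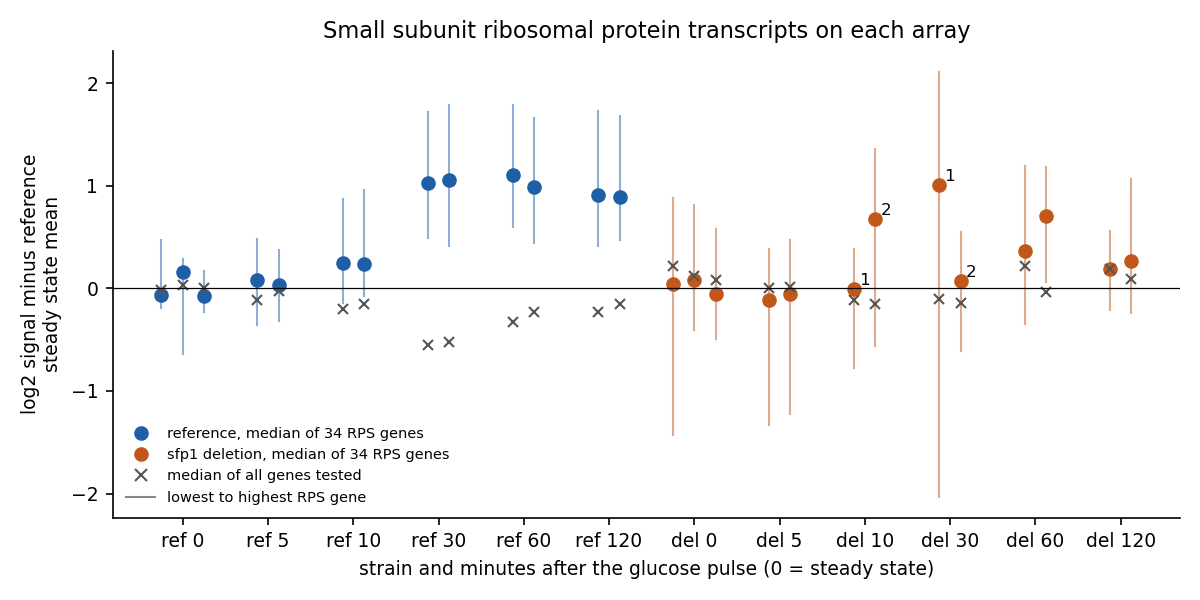
Each point is 1 of the 26 arrays and gives the median over the 34 small subunit genes of log2 signal minus the reference steady state mean (y axis), by strain and minutes after the pulse (x axis). Lines run from the lowest to the highest of the 34 genes, crosses give the median of all genes tested, and replicate numbers mark the deletion arrays of 10 and 30 min. The medians lie between 0.89 and 1.11 on the reference arrays of 30, 60 and 120 min and between 0.19 and 0.71 on the deletion arrays of 60 and 120 min, and replicates labelled 10 or 30 min of the deletion strain lie far apart.

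After the glucose pulse the transcripts rose in the reference strain, a minority of them by 10 min and all by 30 min, and all were still higher than at steady state at the end. No gene was called at 5 min (limma; 4 of 34 had an unadjusted p under 0.05), where 9.57 percent of all genes were called in either direction. At 10 min 13 of 34 genes were called higher and none lower, against 15.4 percent of all genes higher and 31.8 percent lower. All 34 were called higher at each later time, against 22.8 percent of all genes higher and 53.3 percent lower at 30 min, 22.3 and 44.0 percent at 60 min, and 19.1 and 37.6 percent at 120 min. The reference comparisons share their steady state arrays, so they are not independent of each other.

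The median log2 change of the 34 genes at the 5 times in order was 0.06, 0.24, 1.07, 1.08 and 0.90. Over all genes the median moved by -0.07, -0.17, -0.54, -0.28 and -0.19, so relative to the typical gene the rise was larger than the deposited scale shows. A signal is relative to the total of its array, and a change in RNA per cell cannot be seen in it. With arrays brought to a common median, all 34 genes were called higher at 30, 60 and 120 min, with median log2 changes of 2.02, 1.77 and 1.38. With quantile normalization the medians were 0.45, 0.45 and 0.43, 24, 26 and 22 genes were called higher, and 1, 2 and 1 of the 34 changed sign. The 10 min count also moved, to 29 genes with a common median and to 6 with quantile normalization. It was 4 without reference 10 min replicate 1, 6 without replicate 2 of that time, and 7 without steady state replicate 1 or 3.

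RPS3, a head protein at the mRNA entry, shows the course in a gene without a duplicate copy. Its signal was 3234.7, 4052.1 and 3187.6 at steady state, 3814.5 and 3523.2 after 5 min, and 3782.2 and 4165.5 after 10 min. It then read 5870.7 and 5747.0 by 30 min, 5882.2 and 5504.7 by 60 min, and 5608.1 and 5282.5 by 120 min. The arrays of the last 3 times all exceeded those of the first 3, with no overlap. The change at 30 min was 0.74 ± 0.121 on the log2 scale, 1.67-fold (limma adjusted p = 1.7e-05), among the smaller rises of the set.

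The step between 10 and 30 min was itself tested. It was called higher for 33 of 34 genes, with a median of 0.80, against 18.4 percent of all genes higher and 39.4 percent lower. The arrays of the 2 times did not overlap for those 33 genes, as for 27.5 percent of all genes in that direction. The largest steps belonged to RPS26B (1.31 ± 0.148), RPS28A (1.14 ± 0.123) and RPS7B (1.12 ± 0.147). The exception was RPS9A, called lower at -0.47 ± 0.125, described below. With a common median RPS9A was not called lower and changed sign, while 33 genes were still called higher. With quantile normalization 14 genes were called higher and 1 lower, and 3 of the 34 called genes changed sign.

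At 30 min the largest rises were those of RPS26B, RPS28B and RPS7B. RPS26B went from 475.5, 528.2 and 479.8 at steady state to 1475.6 and 1711.0 at 30 min, a change of 1.69 ± 0.135 or 3.22-fold (limma adjusted p = 1.3e-09). RPS28B went from 1224.9, 1373.9 and 1243.0 to 4207.5 and 3994.4, a change of 1.68 ± 0.155 or 3.21-fold (limma adjusted p = 9.7e-09). RPS7B went from 893.6, 1155.2 and 914.1 to 2793.1 and 2710.0, a change of 1.49 ± 0.134 or 2.80-fold (limma adjusted p = 6.8e-09). Each gene's 30 min arrays lay well clear of its steady state arrays.

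The smallest rises at 30 min were those of RPS9A (0.45 ± 0.114), RPS26A (0.50 ± 0.146) and RPS21B (0.72). RPS26A measured 3871.2, 5061.0 and 3732.4 at steady state and 5861.6 and 5964.1 at 30 min, 1.41-fold higher (limma adjusted p = 0.0046). Its arrays did not overlap either, although steady state replicate 2 came near. Signals of different probe sets are not set against each other here, since each probe set has its own brightness.

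From 30 to 120 min the set moved little on the deposited scale. RPS22B (-0.50 ± 0.125) and RPS28A (-0.33 ± 0.123) were called lower and none was called higher, against 17.6 percent of all genes lower and 36.5 percent higher, with a median of -0.17 for the 34 genes and 0.19 for all genes. The scale decides this count: with a common median 30 of 34 genes were called lower, with a median of -0.64, and with quantile normalization 1 was. At 120 min the largest rises over steady state were RPS28B (1.71), RPS26B (1.36) and RPS22A (1.35), and the smallest RPS26A (0.47), RPS22B (0.47) and RPS25A (0.56).

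**Figure D2:**
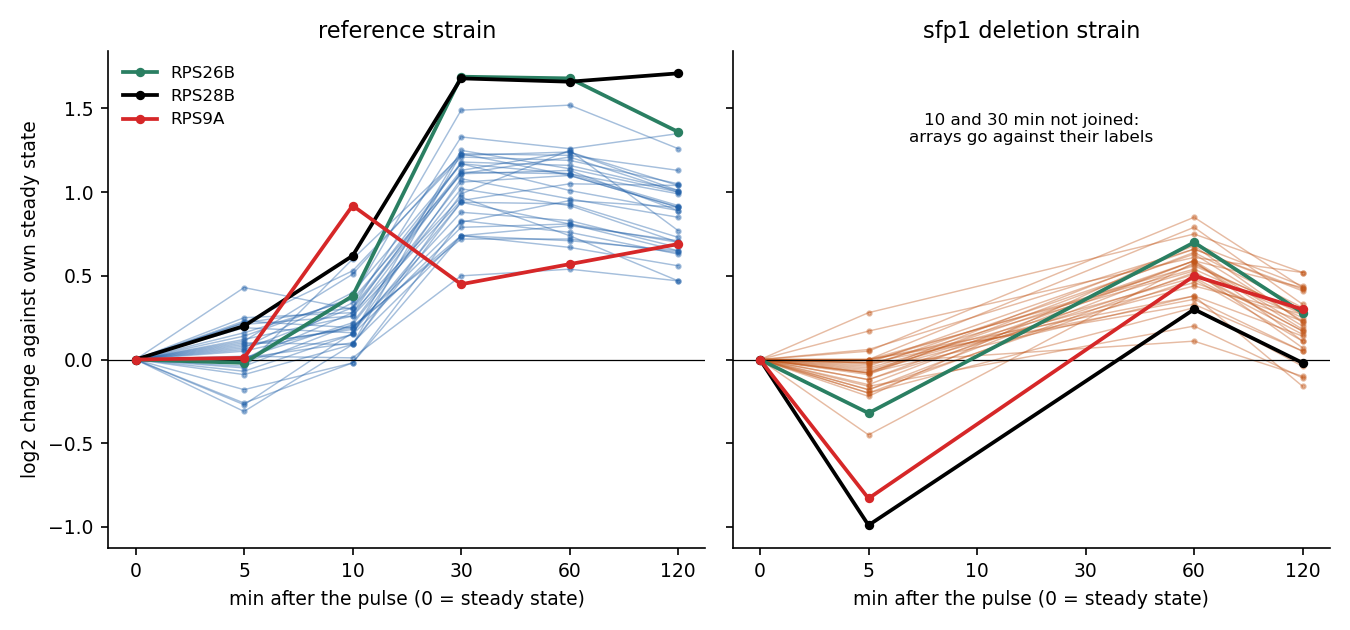
The x axis gives minutes after the pulse (0 is steady state) and the y axis the log2 change from the same strain's steady state, for each of the 34 genes in the reference strain (left) and in the strain lacking SFP1 (right), with RPS26B, RPS28B and RPS9A drawn heavier. The deletion strain's groups at 10 and 30 min, whose arrays go against their labels, are not drawn. The median of the 34 genes in the reference strain stands at 1.07, 1.08 and 0.90 at 30, 60 and 120 min, and the deletion median at 0.55 and 0.23 at 60 and 120 min.

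In the strain lacking SFP1 most of the transcripts also rose after the pulse, and a minority was still called higher at the last time. At 5 min RPS28B, RPS9A and RPS27A were called lower and none higher, against 4.81 percent of all genes lower and 1.84 percent higher. At 60 min 31 of 34 were called higher, against 27.0 percent of all genes, with a median of 0.55. At 120 min 7 of 34 were called higher, against 20.0 percent of all genes, with a median of 0.23, and that share is near the background. The medians over all genes were -0.11, -0.00 and 0.05 at the 3 times. With a common median the deletion strain's median for the 34 genes was 0.07 at 5 min, with 23 genes above 0 in place of 5, and with quantile normalization 30 genes stayed above 0 at 60 min and 16 were called. In the fit of all 26 arrays as labelled none was called lower at 5 min (limma; 2 of 34 had an unadjusted p under 0.05), 8 were called higher at 60 min, and none at 120 min (3 of 34 had an unadjusted p under 0.05).

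RPS3 in the deletion strain measured 3592.3, 3639.8 and 3075.8 at steady state, 3239.9 and 3352.7 after 5 min, 4195.2 and 5302.5 after 60 min and 3901.8 and 4152.4 after 120 min. Both later times lay above steady state, and the 60 min replicates differed more from each other than those of 120 min. The change was 0.46 ± 0.121 at 60 min (limma adjusted p = 0.003) and 0.23 ± 0.121 at 120 min, which was not called (limma adjusted p = 0.13).

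The largest rises at 60 min in the deletion strain were those of RPS1B (0.85), RPS20 (0.79) and RPS14B (0.75). RPS1B encodes a protein of the platform and RPS20 one of the head. RPS26A (0.11), RPS10B (0.20) and RPS28B (0.30) were not called. The 2 cultures of 60 min differed: the median of the 34 genes over the reference steady state was 0.36 in replicate 1, whose actin ratio was 0.247, and 0.71 in replicate 2, with a ratio of 0.598. Without replicate 2, 18 genes were called higher at 60 min. The part of RNA integrity in this spread was not tested. At 120 min the 7 genes called higher were RPS14A (0.52), RPS22A (0.44), RPS22B (0.43), RPS1B (0.43), RPS0B (0.42), RPS7B (0.41) and RPS9A (0.30). All 7 encode proteins of the body and platform and none of the 14 head genes was called, but a count this near the background of all genes shows no pattern by place. The median change was 0.27 for the 20 body and platform genes, 17 of them above 0. It was 0.18 for the 14 head genes, 12 of them above 0. The difference between these groups was not tested. The count at 120 min was 4 without steady state replicate 1 or without 120 min replicate 1, and 1 without 120 min replicate 2.

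The arrays labelled 10 and 30 min of the deletion strain held high and low values under each label. RPS3 measured 3631.3 and 6685.9 under 10 min and 6966.3 and 3789.6 under 30 min. One array under each label was near the strain's steady state, and the other was above every reference array. The medians of the 34 genes over the reference steady state were -0.01 and 0.68 under 10 min and 1.01 and 0.07 under 30 min. The 2 high arrays are those with the low middle to 3′ actin ratios, 0.207 and 0.176. The part of RNA integrity in their values was not tested. As labelled, RPS14A was the 1 gene called higher at 10 min (0.63), against 6.74 percent of all genes, and RPS31, RPS26A, RPS28A and RPS25A were the 4 called higher at 30 min, against 6.93 percent. These counts ranged from 0 to 18 at 10 min and from 0 to 28 at 30 min when 1 array was left out. The 18 came without 10 min replicate 1 and the 28 without 30 min replicate 2. No statement on the timing of the rise in the deletion strain before 60 min can rest on them.

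**Figure D3:**
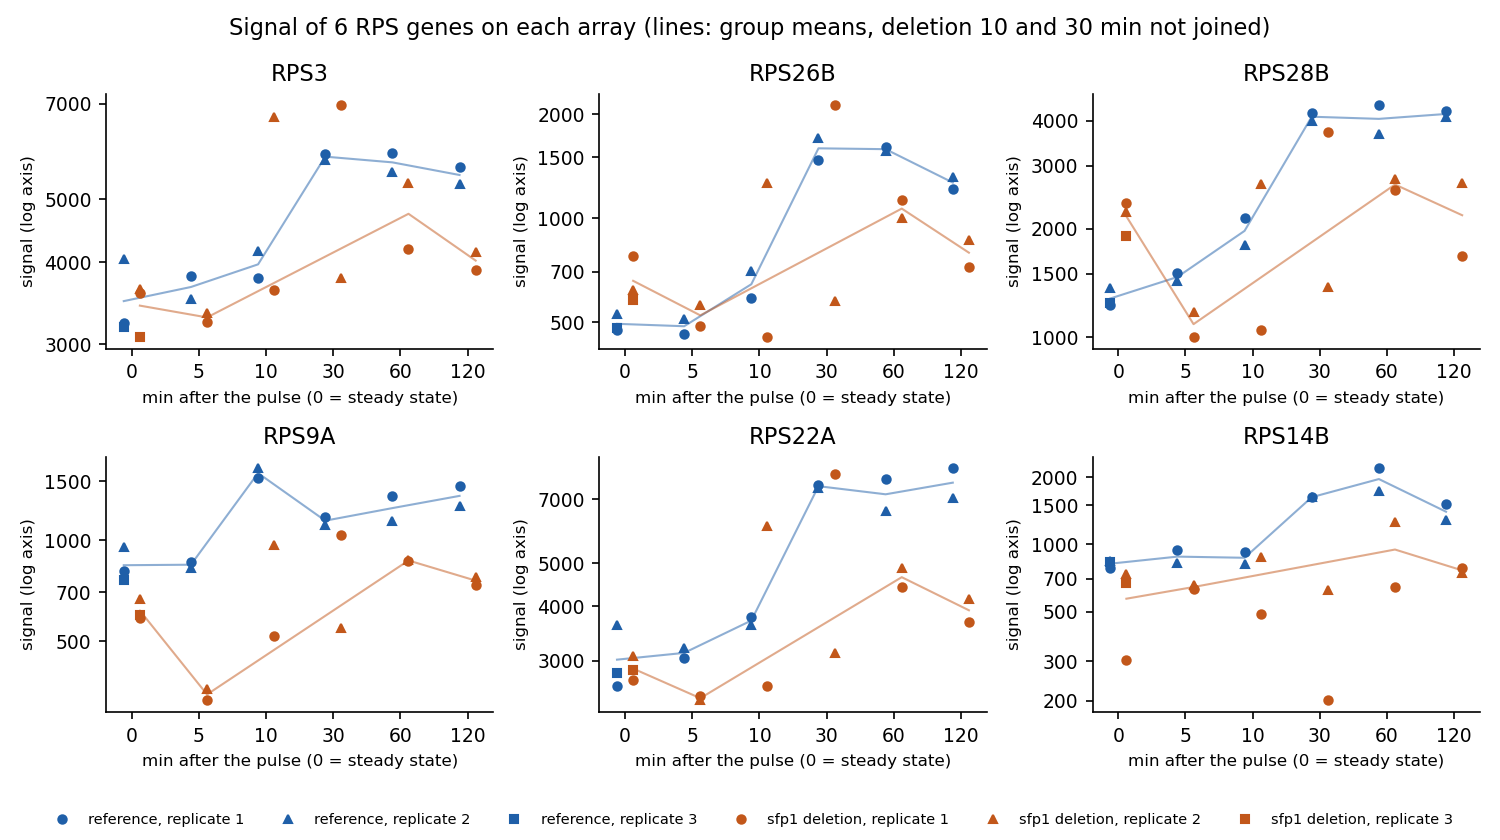
Signal on each array (y axis, log scale) against minutes after the pulse (x axis, 0 is steady state) for RPS3, RPS26B, RPS28B, RPS9A, RPS22A and RPS14B, with the reference strain in blue, the strain lacking SFP1 in orange, and symbols for replicates. Lines join group means and pass over the deletion strain's 10 and 30 min arrays. RPS28B starts higher in the deletion strain and ends lower, and RPS9A peaks at 10 min in the reference strain.

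Whether the strains responded differently was tested as an interaction of strain and time: the change without SFP1 less the change in the reference strain. At 5 min RPS28B and RPS9A were called lower and none higher, against 0.300 percent of all genes lower and 0.131 percent higher. At 60 min 16 of 34 genes were called lower, against 5.13 percent of all genes lower and 18.3 percent higher, with a median of -0.49. At 120 min 21 of 34 were called lower, against 4.35 percent lower and 15.3 percent higher, with a median of -0.73 and a range from -1.73 to -0.04. No gene was called higher at any of the 3 times, where 5, 20 and 31 of the 34 had an unadjusted p under 0.05 in limma. The interactions share the steady state arrays of both strains.

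The all-gene median of the interaction was 0.26 at 60 min and 0.24 at 120 min, of opposite sign to the set. With a common median the counts were 30 and 31 genes, with medians of -0.90 and -1.18. With quantile normalization they were 2 and 8 genes, with medians of -0.17 and -0.29, and 5 and 7 of the 34 genes were above 0. The choice of arrays also changed the counts. In the fit of all 26 arrays as labelled no gene was called in limma at 60 or 120 min, and 4 and 12 had an unadjusted p under 0.05. The medians there were the same, as the discordant arrays enter the shared error and not these group means. The 60 min count was 5 without deletion 60 min replicate 1, 6 without reference 60 min replicate 1, and 28 without deletion 60 min replicate 2. It was 4, with a median of -0.35, without both this strain's steady state replicate 1 and its 60 min replicate 1, the low-actin arrays, where the 120 min count was 24. At 120 min leaving out any 1 array gave 16 to 27 genes. The 2 calls at 5 min were lost without deletion steady state replicate 2, without deletion 5 min replicate 1 and without either reference 5 min array, and 1 remained without deletion 5 min replicate 2 or without reference steady state replicate 3.

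RPS28B had the strongest interaction at each time. In the reference strain it rose to 4254.7 and 4093.0 at 120 min. In the deletion strain it fell from 2355.6, 2235.5 and 1909.8 at steady state to 1000.9 and 1172.5 at 5 min, then measured 2566.3 and 2748.0 at 60 min and 1680.3 and 2686.1 at 120 min. The 5 min arrays were below all steady state arrays, and the 120 min replicates lay on both sides of them. The fall at 5 min was -0.99 ± 0.155 (limma adjusted p = 4.8e-04), while the reference strain measured 1509.4 and 1431.5 at that time, a change of 0.20 that was not called. The interaction was -1.20 ± 0.219 at 5 min (limma adjusted p = 0.016), -1.36 ± 0.219 at 60 min (2.3e-04) and -1.73 ± 0.219 at 120 min (2.3e-05). A further probe set of RPS28B gave differences of 0.84 at steady state and -1.57 in the 120 min interaction, both called, and -1.23 at 5 min, which was not called (limma adjusted p = 0.35).

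After RPS28B, the most negative interactions at 120 min were those of RPS26B and RPS27B. RPS26B reached 1216.2 and 1318.9 in the reference strain at that time and 722.8 and 866.3 in the deletion strain, with an interaction of -1.08 ± 0.191 (limma adjusted p = 6.0e-04). The strains did not overlap, in reverse order to steady state. RPS27B had an interaction of -0.99 ± 0.168 (limma adjusted p = 4.2e-04), and RPS27A one of -0.86 ± 0.179 (2.4e-03). Both copies of RPS29, which encode a small zinc-binding protein of the head, had interactions near -1, at -0.97 for RPS29A and -0.98 for RPS29B. Their probe sets are both of the kind with probes shared within a family, so these may not be separate measurements. The steady state spread of RPS29B was wide in the reference strain, at 1641.1, 759.5 and 1337.7, with replicate 2 low.

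The weakest interactions at 120 min were those of RPS22B (-0.04), RPS14A (-0.21) and RPS14B (-0.24), none of them called. RPS22A and RPS22B encode the same body protein, and RPS22B pre-mRNA is known to be cut by the nuclease Rnt1 when it is not spliced. RPS22A measured 8228.4 and 7044.5 in the reference strain at 120 min and 3681.2 and 4142.1 in the deletion strain, whereas RPS22B measured 1407.5 and 1423.3 against 1321.2 and 1444.1. RPS22A was clearly apart between the strains at that time, and RPS22B overlapped. The interaction was -0.91 ± 0.176 for RPS22A (limma adjusted p = 1.3e-03) and -0.04 ± 0.161 for RPS22B (0.89), and the difference between the copies was not tested. Further RPS22B probe sets gave 0.23 and 0.07, neither called.

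**Figure D4:**
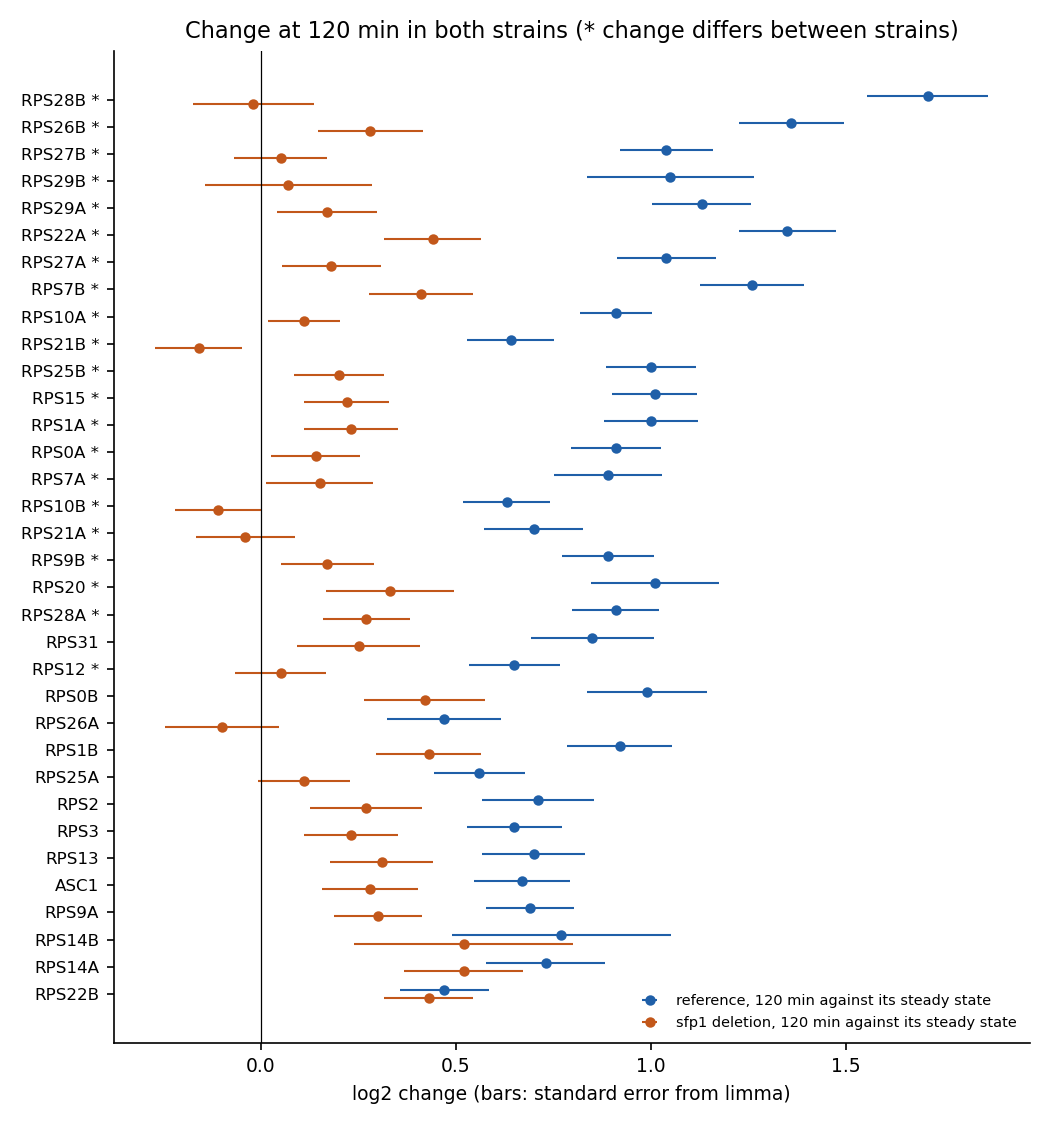
Log2 change from steady state to 120 min for each of the 34 small subunit genes in the reference strain (blue) and in the strain lacking SFP1 (orange), with the SE from limma as bars, genes ordered by their interaction, and an asterisk on the 21 genes whose interaction was called. The reference values run from 0.47 to 1.71 and the deletion values from -0.16 to 0.52, and RPS22B is the gene whose values lie closest.

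RPS2, RPS31 and ASC1, like RPS3, have no duplicate. RPS2 lies at the mRNA entry, RPS31 is made as a fusion of ubiquitin to a head protein, and ASC1, the yeast homologue of RACK1, is a signalling scaffold bound to the head. RPS31 measured 2406.1, 2721.3 and 2014.2 at steady state in the reference strain and 4477.2 and 4065.2 at 120 min, and 1991.2, 2453.8 and 2212.0 against 2577.8 and 2687.3 in the deletion strain. It was higher at 120 min in both, called in the reference strain alone (0.85 ± 0.158, limma adjusted p = 1.4e-04, and 0.25 ± 0.158, adjusted p = 0.21). ASC1 measured 2714.4, 3388.4 and 2927.2 at steady state and 4992.0 and 4534.3 at 120 min in the reference strain, and 2340.5, 2654.6 and 2348.8 against 3028.1 and 2913.5 in the deletion strain. The ASC1 interaction of -0.39 ± 0.173 at 120 min did not pass (limma adjusted p = 0.13), nor did those of RPS2 (-0.44, 0.13), RPS3 (-0.42, 0.092) and RPS31 (-0.60, 0.067). An interaction that misses the threshold does not show that these genes respond alike in the strains.

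By place in the subunit, the head and the body with platform had similar medians. The 14 head genes had a median change of 1.11 in the reference strain at 30 min and the 20 body and platform genes one of 1.00. The 120 min interaction was called lower for 10 of 14 head genes (median -0.71) and 11 of 20 others (median -0.73). The 47 large subunit genes gave medians of 1.05, 1.05 and 0.88 in the reference strain at 30, 60 and 120 min, with 46 called higher each time, and an interaction median of -0.66 at 120 min with 33 called lower. No difference between the subunits was tested.

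RPS9A departed in timing from all others on the deposited scale. With a common median its step from 10 to 30 min changed sign, as given above. In the reference strain RPS9A measured 809.4, 955.4 and 764.2 at steady state, 862.1 and 829.7 after 5 min, 1532.1 and 1637.2 after 10 min, and 1174.5 and 1113.5 after 30 min. It read 1351.5 and 1141.7 by 60 min and 1449.4 and 1262.8 by 120 min. Its highest arrays were those of 10 min, whereas by group mean the other 33 genes were highest at 30 min or later. The change at 10 min was 0.92 ± 0.114 (limma adjusted p = 3.0e-06), the largest of the set at that time. In the deletion strain it measured 333.8 and 361.1 at 5 min, below all steady state arrays, a change of -0.83 ± 0.114 (limma adjusted p = 1.3e-04), and 868.9 and 872.8 at 60 min. The 5 min interaction was -0.84 ± 0.162 (limma adjusted p = 0.024).

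RPS9B followed the set. It measured 1472.3, 1807.8 and 1434.4 at steady state in the reference strain, 2086.6 and 2038.0 at 10 min and 3561.0 and 3478.8 at 30 min, with changes of 0.40 and 1.17. A probe set named for both RPS9A and RPS9B gave differences of -0.79 at steady state, 0.94 at 10 min in the reference strain, -1.06 at 5 min in the deletion strain and -0.98 in the 5 min interaction, all called in limma. In the same order RPS9A gave -0.44, 0.92, -0.83 and -0.84, and RPS9B gave 0.23, 0.40, -0.20 and -0.26. The shared set was thus nearer to RPS9A in all of these, though not equal to it. Which copy it measures was not tested.

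The copies of a duplicate pair, which encode the same or nearly the same protein, had fitted changes from nearly equal to far apart. In the reference strain at 30 min the gap between copies was 0.30 on the log2 scale in the median of the 13 pairs. The widest gaps were those of RPS26 (1.69 for RPS26B, 0.50 for RPS26A), RPS9 (1.17 for RPS9B, 0.45 for RPS9A) and RPS25 (1.25 for RPS25B, 0.74 for RPS25A). RPS29 (1.23 and 1.21), RPS14 (0.94 and 0.99) and RPS1 (1.11 and 1.17) had the narrowest, with gaps of 0.02, 0.05 and 0.06. In the 120 min interaction the widest gap was that of RPS28 (-1.73 for RPS28B, -0.64 for RPS28A), followed by RPS22. No test of a copy against its partner was made, and probe sets that may pick up the other copy would narrow a gap. Of the 34 probe sets 18 have the suffix _at, 10 _f_at, which marks probes shared within a family, and 6 _i_at, which marks an incomplete set of probes. Both sets are _f_at for RPS29, RPS9, RPS25 and RPS10, and both are _i_at for RPS1 and RPS21. How far a set reads the other copy was not tested, so the like values of the RPS29 copies may not be separate measurements.

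**Figure D5:**
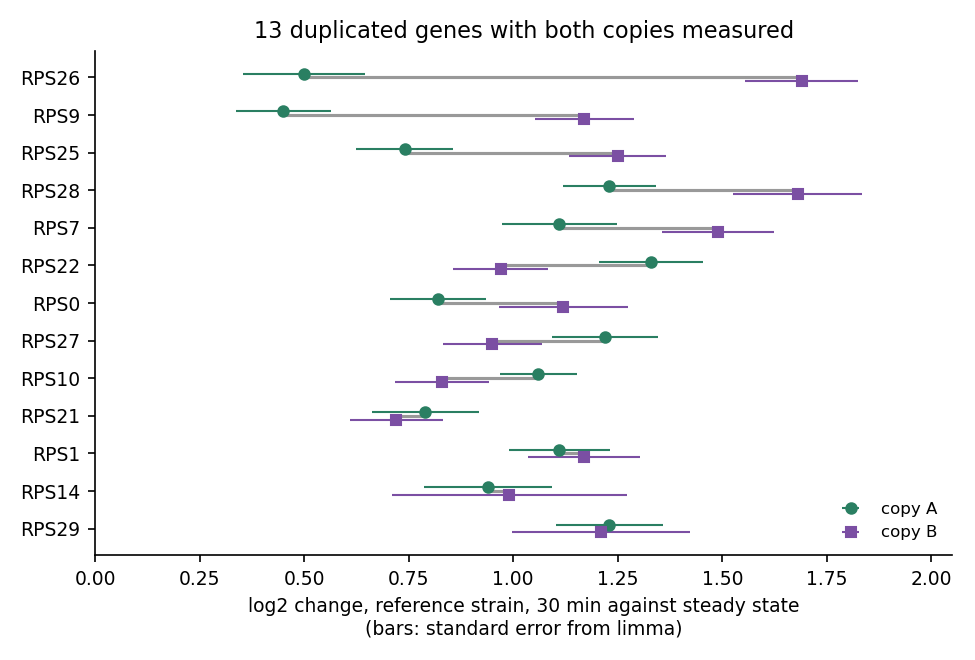
Log2 change at 30 min in the reference strain for copy A (circles) and copy B (squares) of the 13 proteins with both copies measured, with the SE from limma as coloured bars and a grey bar spanning each pair. The pair RPS26 has the longest span, 1.19, and RPS29 the shortest, 0.02.

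Probe sets that were not chosen are given for comparison. Of 21 probe sets shared between a pair of small subunit genes, 4 name members and 17 name genes that are not among the 34. Over these 21, the median change in the reference strain was 1.06 at 30 min and 0.77 at 120 min, with 21 called higher each time, when p-values were adjusted over all probe sets. In the deletion strain at 60 min 20 were called higher, and in the 120 min interaction 9 were called lower, with a median of -0.56. Among 15 further probe sets naming a member alone, 14 were called higher at 30 min, with a median of 1.26. In the 120 min interaction 5 of them were called lower, with a median of -0.42 and a range from -1.57 to 0.23, where the chosen sets had 20 called under the same adjustment, a median of -0.72 and all values below 0. From 30 to 120 min 6 of the 15 were called lower, with a median of -0.35, against 2 of the 34 chosen sets and a median of -0.18. The largest rise among them, 2.41, came from a further RPS22B set.

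The 34 genes had profiles of like shape over the 10 group means. Pearson's r between a gene and the mean of the other 33 had a median of 0.969, and 33 of the 34 were over 0.9. The share of all genes over 0.9 was not counted, so that count is not shown to be particular to the set. RPS9A was the exception at 0.641. These values describe means that share arrays and scaling. Outside the ribosomal protein genes, TIF11 (0.980), FRS1 (0.977), WTM2 (0.976), FET4 (0.976) and LYS12 (0.975) were most like the mean profile, but by Spearman's rho 1 of these 5 was among the first 5. TIF11 encodes initiation factor eIF1A, which binds the 40S subunit, and FRS1 a subunit of phenylalanyl-tRNA synthetase. Among large subunit genes RPL17B (0.997), RPL14B (0.996), RPL32 (0.996), RPL14A (0.995) and RPL33A (0.995) were most alike.

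Most genes for the proteins that build the 40S subunit rose early in the reference strain, and most were lower at 120 min than at 30 min. Of 15 assembly factors and chaperones, 12 were called higher at 10 min with a median of 0.90, 14 at 30 min with a median of 1.50 and 14 at 60 min with 1.04, and at 120 min 3 were higher and 1 lower, with a median of 0.29. From 30 to 120 min 13 of 15 were called lower, with a median of -1.14, on the deposited scale. That compares with 2 of the 34 ribosomal protein genes, with a median of -0.17, and 17.6 percent of all genes. The count for the ribosomal protein genes depends on the scale, as given above. The assembly factors were not compared with them on another scale. ENP1 and TSR1, which act in early and late steps of 40S maturation, rose by 2.94 and 2.23 at 30 min and were still called higher at 120 min, by 1.27 and 1.15. In the deletion strain 12 were called higher at 60 min with a median of 0.85. The interaction was called lower at 60 min for ENP1 (-1.05) and TSR1 (-1.27), and for none at 120 min (limma; 2 of 15 had an unadjusted p under 0.05), where the median was -0.01. In the reference strain at steady state ENP1 measured 115.7, 49.4 and 104.5 and TSR1 193.9, 99.9 and 185.5. Replicate 2 was low for both genes, which lowers the baseline of their rises and interactions. The size of these changes without it was not tested.

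Regulators of ribosomal protein genes moved in both directions. Of 12, SFP1, IFH1 (-0.61) and TOR1 (-0.52) were called lower in the deletion strain at steady state. In the reference strain at 30 min TOD6, a repressor of ribosome biogenesis genes, rose by 2.68, IFH1, the coactivator bound to Fhl1, by 2.46 and SFP1 by 0.85, while CRF1, a corepressor that competes with Ifh1, fell by 2.45. CRF1 was also called lower in the deletion strain at 60 min (-2.17) and 120 min (-2.59), and IFH1 higher at both (0.97 and 0.65). In the 120 min interaction HMO1, which binds the promoters of many ribosomal protein genes, was the 1 regulator called, at -0.50.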

How the data were processed

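Per the submitters' processing notes the authors used GCOS, Affymetrix's own software, to make the deposited signal intensity of each probe set. The sources used here give neither its version nor its settings. The intensities were analysed on the deposited scale. After removal of 60 control probe sets from 9335, the platform annotation gave 6504 probe sets 1 gene each, all found in RefSeq, 328 several genes and 2443 none.

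Signals under 12 were set to 12, log2 was taken, and genes above 12 on fewer than 2 arrays were left out. In R 4.3.3, limma 3.58.1 fitted group means by lmFit and eBayes (trend on), on 22 arrays (5339 genes, 12 residual degrees of freedom) or, for the deletion strain at 10 and 30 min, on 26 (5369 genes, 14). Tests are two-sided, and p-values were adjusted by Benjamini-Hochberg over all genes tested within a comparison. Errors are limma's SE. The procedure was tested on simulated data. Precision is limited by how few arrays a group has. Python 3.11.15 and matplotlib 3.10.9 drew the figures.

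The members, the lists and the 22 arrays were chosen with earlier results of these data known. Named genes are those called at steady state, the 3 with the largest and the 3 with the smallest or opposite change per comparison, 3 pairs with the widest and 3 with the narrowest gap, genes chosen by role, and list examples.

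Alternatives were a common median, quantile normalization, no filter, a floor of 48, adjustment over all probe sets, no intensity trend, the replicate block, the groups compared alone, 26 or 24 arrays, the 10 and 30 min arrays pooled, and each array left out in turn. Leaving out the low-actin arrays was added after seeing the data.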

Additional observations from a re-analysis of the deposited data

Results flagged for a closer look

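The strain by time interaction, the deletion strain's change from steady state minus the reference strain's, passed the test for 39 gene and time pairs among the 34 genes (limma, adjusted p under 0.05 over all genes). Each is a difference between the strains in the change from their own steady state. A difference at steady state therefore enters it, as the 0.76 of RPS28B does. Deletion steady state replicate 1, with an actin ratio of 0.147, also enters all of them. Counts without the low-actin arrays, and the range of counts with 1 array left out, are given in the other sections. The part of RNA integrity in these values was not tested. In the fit of all 26 arrays as labelled none of them was called, and 2, 4 and 12 genes had an unadjusted p under 0.05 at 5, 60 and 120 min.

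At 120 min, in log2 units, RPS28B stood at -1.73, RPS26B at -1.08, RPS27B at -0.99, RPS29B at -0.98, RPS29A at -0.97 and RPS22A at -0.91. RPS27A had -0.86, RPS7B -0.85, RPS10A -0.81, RPS21B and RPS25B -0.80 each, RPS15 -0.79, and RPS0A and RPS1A -0.77 each. RPS7A and RPS10B had -0.74 each, RPS21A -0.73, RPS9B -0.72, RPS20 -0.68, RPS28A -0.64 and RPS12 -0.59.

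At 60 min RPS28B had -1.36, RPS26B -0.98, RPS7B -0.86, RPS27B -0.73, RPS29A -0.71, RPS27A -0.66, RPS7A -0.64 and RPS10A -0.62. RPS1A had -0.58, RPS0A and RPS22A -0.57 each, RPS10B and RPS25B -0.55 each, RPS28A -0.53, RPS9B -0.49 and RPS15 -0.48. All 16 of these genes are among the 21 of 120 min, and the interactions at both times share the steady state arrays. The actin ratio of deletion 60 min replicate 1 was 0.247. Fewer genes were called at 60 min without this array, as given with the interactions above, in a fit that leaves 1 deletion culture at that time. The part of RNA integrity in the 60 min values was not tested.

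At 5 min RPS28B had -1.20 and RPS9A -0.84. RPS9A was called at neither later time, with -0.07 at 60 min and -0.39 at 120 min.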

How the results depend on the processing

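All 34 genes were called higher in the reference strain at 30 and 60 min without any 1 array, and 32 to 34 at 120 min. No called gene changed direction except under quantile normalization and, for RPS9A between 10 and 30 min, a common median. Counts of genes called that moved by over 1.5 times follow, per comparison; the cause was not tested.

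Under quantile normalization 8 were higher between strains before the pulse, 1 higher and 1 lower in the reference strain at 5 min, 6 higher at 10 min, 22 at 120 min, 14 from 10 to 30 min, 1 lower from 30 to 120 min, 16 higher in the deletion strain at 60 min, none higher and 5 lower at 10 min, none higher at 30 min, and 2 and 8 lower in the 60 and 120 min interactions. With a common median 1 was higher at steady state, 2 in the reference strain at 5 min and 29 at 10 min, none lower from 10 to 30 min, 30 lower from 30 to 120 min, 10 and 26 higher in the deletion strain at 10 and 30 min, and 30 lower in the 60 min interaction.

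With 26 arrays as labelled limma called 0 at steady state in either direction (1 at an unadjusted p under 0.05), 1 higher in the reference strain at 10 min, 0 lower from 10 to 30 min, 1 lower from 30 to 120 min, 0 lower in the deletion strain at 5 min (2), 8 higher at 60 min, 0 at 120 min (3), and 0 in the 5, 60 and 120 min interactions (2, 4 and 12). With 24 arrays, 0 were higher and 5 lower in the deletion strain at 10 min, and 29 higher and 2 lower at 30 min. Pooling the 10 and 30 min arrays gave 7 higher.

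With only the groups compared 1 was lower at steady state, 8 higher in the reference strain at 10 min, 5 lower from 30 to 120 min, 0 higher in the deletion strain at 10 and 30 min, and 1 and 6 lower in the 5 and 60 min interactions. Adjusting over all probe sets, or leaving out the intensity trend, gave 8 higher in the reference strain at 10 min, and the latter 1 lower from 30 to 120 min. Without the low-actin arrays 1 was lower between strains before the pulse, 1 higher and 2 lower in the reference strain at 5 min, 6 lower from 30 to 120 min and 4 lower in the 60 min interaction. The replicate block gave 5 lower at steady state, adding ASC1, RPS14A and RPS14B lower and RPS29A higher to the 5 calls, and 1 higher in the reference strain at 5 min, and moved no other count by over 1.5 times. Replicate numbers were not taken to pair the arrays, since the labels do not say whether a culture gave several times and not every pair was over 0.1: correlations of deviations between same-numbered arrays ran from -0.212 to 0.272 in the reference strain (15 pairs, 8 over 0.1) and from -0.201 to 0.356 in the deletion strain (6 pairs, 3 over 0.1). Between pulsed times they ran from 0.0694 to 0.272 in the reference strain, where all negative values came from pairs with steady state. In the deletion strain they ran from -0.0672 to 0.121 between pulsed times. Whether the numbers pair the cultures was not tested.

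Leaving out 1 array at a time gave 2 to 5 higher and 1 to 4 lower at steady state, 4 to 14 higher in the reference strain at 10 min, 30 to 32 higher and 1 lower from 10 to 30 min, and 1 to 2 lower from 30 to 120 min. In the deletion strain it gave 2 to 3 lower at 5 min, 18 to 31 higher at 60 min, 1 to 8 at 120 min, 0 to 18 higher and 0 to 1 lower at 10 min, and 0 to 28 higher and 0 to 2 lower at 30 min. For the interactions it gave 0 to 2, 5 to 28 and 16 to 27 lower at 5, 60 and 120 min.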

Other observations

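RPS14B and RPS22A are neighbours in the RefSeq gene table, the 1 neighbouring pair among the 34 genes. RPS14B rose by 0.99 and RPS22A by 1.33 in the reference strain at 30 min, and their 120 min interactions were -0.24 and -0.91, the latter called in limma. The difference between the neighbours was not tested.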
